A study of Mus musculus with 10 samples.

Results

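The mRNAs of the transcriptional coactivators YAP (Yap1) and TAZ (Wwtr1), of the 4 TEAD transcription factors (Tead1, Tead2, Tead3 and Tead4) and of 4 classical target genes (Ccn1, Ccn2, Amotl2 and Lats2) were examined in mouse hippocampus. These 10 genes of the 28871 in the count table were chosen by name, because verteporfin, the compound given to the treated mice, is known as an inhibitor of the binding of YAP to TEAD. All 10 genes were present in the table. The older symbols of Ccn1 and Ccn2 are Cyr61 and Ctgf.

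The samples were whole hippocampi of wild-type male C57BL/6J mice aged 2 months. Visudyne, the injectable form of verteporfin, was given into the cisterna magna of the treated group and light of 689 nm was applied over the closed skull, a procedure meant to ablate lymphatic vessels of the meninges. The procedure was given again after 2 weeks, and the tissue was taken 2 weeks after the last one. Controls received vehicle in place of Visudyne and the same light protocol. Both groups thus carried the injection, and no group received verteporfin without light. The amount of verteporfin reaching the hippocampus was not analysed here. Total RNA of 5 Visudyne samples (numbers 3, 6, 9, 12 and 15) and 5 vehicle samples (1, 4, 7, 10 and 13) was sequenced to between 51165271 and 68895223 estimated counts per sample. The labels leave it unsaid whether 1 sample is 1 animal, so p-values measure the spread between these samples.

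In the Hippo pathway, the kinases MST and LATS phosphorylate YAP and TAZ and so keep them out of the nucleus. Unphosphorylated YAP and TAZ bind TEAD proteins on DNA and raise the transcription of genes for matrix and growth factors, among them Ccn1 and Ccn2, and of inhibitors of the pathway, Amotl2 and Lats2, which form a negative feedback. In the adult brain YAP is found mainly in astrocytes, neural stem cells, ependyma and vessel-associated cells, and little in most neurons. Verteporfin acts on YAP as a protein, so an effect would be looked for in the mRNA of the target genes and not necessarily in that of Yap1 itself.

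The short DNA word bound by TEAD proteins, GGAATG or its reverse complement CATTCC, was searched in the promoters of these genes, because it is the element through which YAP and TAZ reach their targets. RefSeq promoter windows of build GRCm38.p6, from 250 bases before to 50 bases after each start site, were matched for 7 of the 10 genes (11 windows): Yap1, Wwtr1, Tead2, Tead3, Ccn1, Amotl2 and Lats2. Tead1, Tead4 and Ccn2 had no entry. The word lay in 8 of the 11 windows and in 6 of the 7 genes, Tead2 being without it, against 14.7% of all 32851 promoter windows and 16.6% of 27025 genes. A match is a description of the sequence and not evidence of binding in the hippocampus.

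The bases before the start sites of Ccn1, the target with a match 103 bases before its start, and of Yap1, with a match 141 bases before its start, are shown 5′ to 3′ on the strand of the gene, with the TEAD word in capitals. Both matches lie upstream of the annotated gene bodies. The far end of the Yap1 window reaches an exon of the noncoding gene Gm45494 on the other strand.
Ccn1, chr3:145649986-145650235, minus strand: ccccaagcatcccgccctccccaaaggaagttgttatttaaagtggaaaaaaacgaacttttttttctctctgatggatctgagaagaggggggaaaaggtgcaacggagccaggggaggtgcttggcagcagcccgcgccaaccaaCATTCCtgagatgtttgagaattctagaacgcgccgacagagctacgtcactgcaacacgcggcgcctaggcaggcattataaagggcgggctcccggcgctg
Yap1, chr9:8004597-8004846, minus strand: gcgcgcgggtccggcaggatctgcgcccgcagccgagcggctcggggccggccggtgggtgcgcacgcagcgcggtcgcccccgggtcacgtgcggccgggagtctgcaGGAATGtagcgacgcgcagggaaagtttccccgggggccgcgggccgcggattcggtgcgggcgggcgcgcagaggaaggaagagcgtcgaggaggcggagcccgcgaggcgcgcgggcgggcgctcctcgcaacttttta

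Wwtr1 held a match 136 bases before its start (its other window contains the same match), Amotl2 one 65 bases before, and Tead3 one 182 bases before the start of its first window and 2 that are 123 and 114 bases before the start of another, which has 1 more just past its start. The matches of Wwtr1 and the first of Tead3 lie upstream of the gene body, whereas that of Amotl2 and the pair in Tead3 lie within 5′ untranslated exons of GENCODE transcripts that start further upstream. These sites are shown in windows of 30 bases, because 3 genes of different roles (coactivator, DNA-binding partner and feedback target) carry the same word.
Wwtr1, chr3:57576029-57576058, minus strand: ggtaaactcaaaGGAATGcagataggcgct
Tead3, chr17:28350970-28350999, minus strand: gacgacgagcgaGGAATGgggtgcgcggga
Tead3, chr17:28350706-28350735, minus strand: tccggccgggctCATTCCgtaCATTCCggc
Amotl2, chr9:102717727-102717756, plus strand: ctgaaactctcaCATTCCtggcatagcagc

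In Lats2 the match began 4 bases past the start of its first window, inside an annotated untranslated exon, and the other Lats2 window held none. The AP-1 site (TGAGTCA or TGACTCA), at which YAP and TEAD often act together with AP-1 proteins, was found in 0 of the 11 windows and in 5.20% of all promoter windows. The CArG box, the site of serum response factor, was likewise found in 0 of the 11 windows and in 1.63% of all. These searches say only that the letters are not in these windows.

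No difference between Visudyne and vehicle samples passed the test for any of the 10 genes. By edgeR's quasi-likelihood F-test 0 of 10 passed an adjusted p of 0.05, where 0.0210% of the 19093 genes tested did. At an unadjusted p of 0.05 the count was again 0 of 10, against 1.70% of all genes. Groups without overlap were seen for 0 of 10 and for 0.435% of all genes. DESeq2 and limma voom also called 0 of 10. The log2 fold change was positive for 8 genes and negative for 2, with a median of 0.116 where the median over all genes was 0.00216 and 51.1% of all genes were positive. Over 20 alternative settings the median of the 10 genes ran from 0.063, without Visudyne sample 15, to 0.141, under a filter of 1 CPM in 5 samples that leaves 9 of them, and it was 0.074 without Visudyne sample 3. All 10 genes passed the filter on low counts. The values below are CPM, the usual scaling of counts to a common library total, with TMM factors. Means are given ± SD over the 5 samples of a group. Log2 fold changes, the Visudyne level minus the vehicle level, are given with their SE and 95% confidence interval from edgeR. All 10 adjusted p-values of this edgeR test were 0.9999. Bulk RNA cannot tell fewer cells of a type from less RNA per cell.

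**Figure D1:**
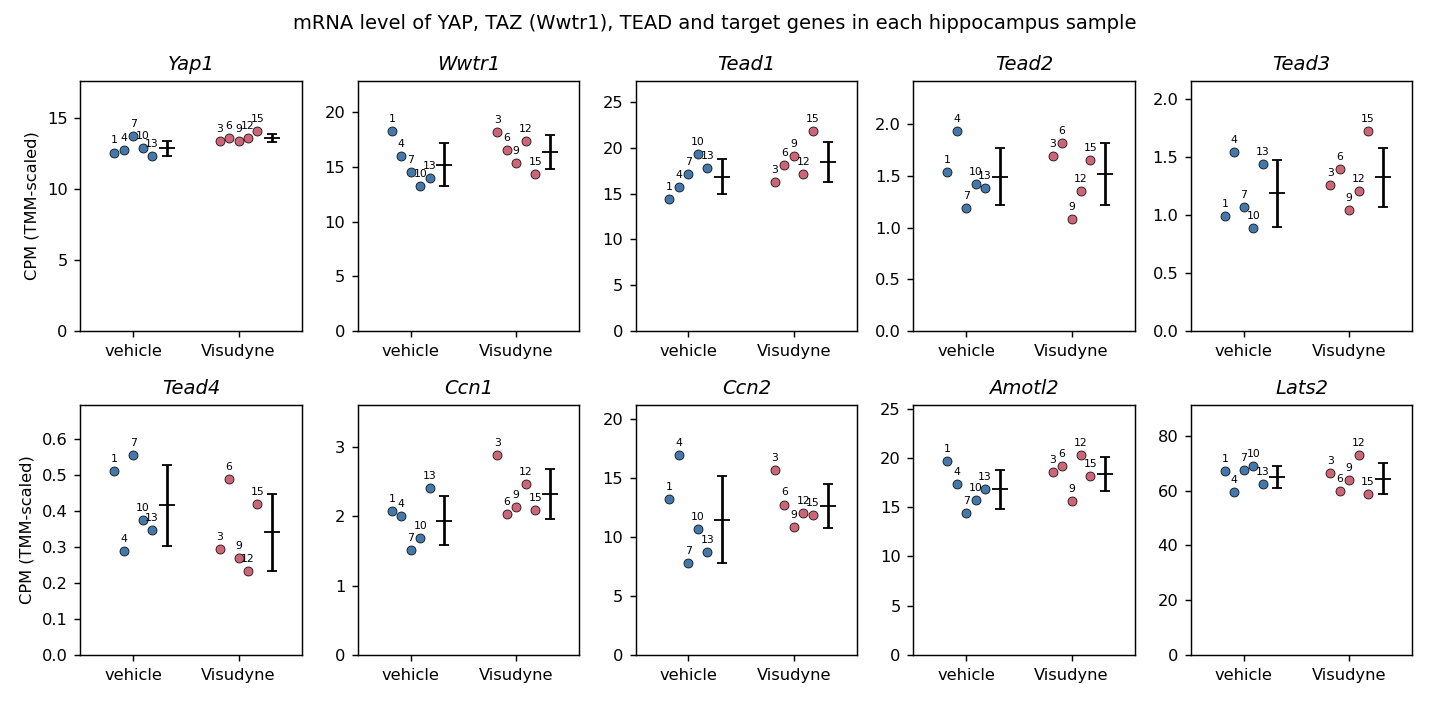
CPM of each gene (y axis, from 0) in the 5 vehicle and 5 Visudyne samples (x axis), each point a sample labelled with its number, and the bar beside each group its mean ± SD. The groups overlap in all 10 panels: Yap1 is the tightest, between 12.3 and 14.1 CPM, and Ccn2 ranges from 7.81 to 16.9 CPM.

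Among the coactivators, Yap1 (ENSMUSG00000053110, chr9:7931999-8004596, minus strand) encodes YAP. Yap1 measured 12.6, 12.8, 13.8, 12.9 and 12.3 CPM in vehicle samples 1, 4, 7, 10 and 13, and 13.4, 13.6, 13.4, 13.6 and 14.1 CPM in the Visudyne group 3, 6, 9, 12 and 15. Of the Visudyne values 1, that of sample 15, lay above the highest vehicle value, that of sample 7, and the other 4 lay between the highest and the second highest vehicle value. Means were 12.9 ± 0.539 CPM with vehicle and 13.6 ± 0.298 CPM with Visudyne. The log2 fold change was 0.08 (SE 0.05, interval -0.02 to 0.18), so that folds from 0.984 to 1.14 lie within the interval. Yap1 was the least variable of the 10, with a coefficient of variation of 4.26% over the samples, where counting error alone would give 3.61%. The biological coefficient of variation that edgeR estimates, moderated by the values of other genes, was 6.13%, against 11.3% for the median gene.

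Wwtr1 (ENSMUSG00000027803, chr3:57455649-57575910, minus strand) encodes TAZ, the paralogue of YAP. In the same sample order its values were 18.3, 16.0, 14.6, 13.2 and 13.9 CPM in the vehicle group and 18.2, 16.6, 15.3, 17.3 and 14.4 CPM in the Visudyne group. Vehicle sample 1 and Visudyne sample 3 were nearly equal and the highest of all, and the lowest Visudyne value lay within the vehicle range. Wwtr1 averaged 15.2 ± 1.98 CPM with vehicle and 16.3 ± 1.52 CPM with Visudyne, and its log2 fold change of 0.10 (SE 0.09, interval -0.10 to 0.30) did not exceed the spread between samples. Per kilobase of exon the ratio of Yap1 to Wwtr1 was 0.443 ± 0.0601 with vehicle and 0.433 ± 0.0483 with Visudyne (exact two-sided permutation test, p = 0.778), with TAZ mRNA the higher in all 10 samples (ratio 0.356 to 0.506).

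The TEAD proteins bind DNA and carry the interface that YAP and TAZ occupy. Tead1 (ENSMUSG00000055320, chr7:112679318-112906807, plus strand) measured 14.4, 15.7, 17.1, 19.3 and 17.7 CPM in the 5 vehicle samples and 16.2, 18.1, 19.1, 17.1 and 21.8 CPM in the 5 Visudyne samples. Visudyne sample 15 was the highest and vehicle sample 1 the lowest, and the remaining values of the groups were interleaved. The means were 16.9 ± 1.90 CPM with vehicle and 18.5 ± 2.15 CPM with Visudyne, a log2 fold change of 0.13 (SE 0.09, interval -0.07 to 0.33).

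Tead2 (ENSMUSG00000030796, chr7:45215753-45233644, plus strand), a TEAD gene known for its expression in the embryonic nervous system, rested on 60 to 130 counts per sample. Its CPM values were 1.53, 1.93, 1.19, 1.42 and 1.38 in the vehicle group and 1.69, 1.81, 1.08, 1.35 and 1.66 in the Visudyne group, with a mean of 1.49 ± 0.275 CPM with vehicle and 1.52 ± 0.298 CPM with Visudyne. The extremes were vehicle sample 4 and Visudyne sample 9, and the groups covered almost the same range. The log2 fold change was 0.03 (SE 0.18, interval -0.36 to 0.42), and its sign changed when certain single samples were left out.

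Tead3 (ENSMUSG00000002249, chr17:28331671-28350817, minus strand), best known from placenta, had 45 to 100 counts per sample. It measured 0.990, 1.55, 1.07, 0.889 and 1.44 CPM in vehicle samples and 1.26, 1.40, 1.05, 1.21 and 1.73 CPM in the Visudyne group. Visudyne sample 15 lay above the vehicle range and vehicle samples 1 and 10 below the Visudyne range. Averages were 1.19 ± 0.289 CPM with vehicle and 1.33 ± 0.255 CPM with Visudyne, and the log2 fold change was 0.16 (SE 0.20, interval -0.27 to 0.59).

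Tead4 (ENSMUSG00000030353, chr6:128224288-128300823, minus strand), which is needed for the trophectoderm of the early embryo, was the scarcest of the 10 at 13 to 35 counts per sample. The vehicle samples held 0.511, 0.290, 0.556, 0.376 and 0.348 CPM and the Visudyne samples 0.294, 0.488, 0.270, 0.234 and 0.418 CPM. Visudyne samples 9 and 12 lay below the vehicle range, and the other 3 lay inside it. Tead4 averaged 0.416 ± 0.113 CPM with vehicle and 0.341 ± 0.107 CPM with Visudyne, with a log2 fold change of -0.28 (SE 0.28, interval -0.89 to 0.33). For Tead4, folds from 0.54 to 1.26 thus lie within the interval. Its coefficient of variation over the 10 samples was 29.4%, where counting error alone would give 21.3%.

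Per kilobase of exon Tead1 made up most of the TEAD mRNA. Its share of the summed level of the 4 TEAD genes was 67.1 ± 4.44% with vehicle and 69.1 ± 4.24% with Visudyne (n = 5 each, exact two-sided permutation p = 0.484). Tead2 followed with 16.9 ± 3.31% and 16.1 ± 2.92% (exact p = 0.667), Tead3 with 9.58 ± 2.20% and 9.98 ± 0.981% (exact p = 0.714) and Tead4 with 6.34 ± 2.00% and 4.75 ± 1.15% (exact p = 0.183). After adjustment over these 4 shares and the ratio of Yap1 to Wwtr1 all 5 exact p-values were 0.778. The smallest p that the 252 assignments of 5 and 5 samples allow is 0.00794.

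Ccn1 and Ccn2 encode secreted matricellular proteins and are the targets most used as a readout of YAP activity. Ccn1 (ENSMUSG00000028195, chr3:145646976-145649981, minus strand), which is also an immediate early gene, measured 2.08, 2.01, 1.51, 1.68 and 2.41 CPM in the vehicle group and 2.88, 2.04, 2.13, 2.47 and 2.09 CPM in the Visudyne group. Visudyne samples 3 and 12 lay above the vehicle range, and the other 3 lay among the vehicle samples. With means of 1.94 ± 0.352 CPM with vehicle and 2.32 ± 0.358 CPM with Visudyne, the log2 fold change was 0.26 (SE 0.15, interval -0.08 to 0.59). Counts ran from 76 to 167 per sample, and folds from 0.947 to 1.51 lie within the interval.

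Ccn2 (ENSMUSG00000019997, chr10:24595442-24598683, plus strand) measured 13.2, 16.9, 7.81, 10.6 and 8.71 CPM in vehicle samples and 15.7, 12.7, 10.8, 12.02 and 11.9 CPM in the Visudyne group. All 5 Visudyne values lay within the vehicle range, which ran from 7.81 CPM in sample 7 to 16.9 CPM in sample 4. Means were 11.5 ± 3.70 CPM with vehicle and 12.6 ± 1.85 CPM with Visudyne, and the log2 fold change was 0.14 (SE 0.19, interval -0.26 to 0.54). Single samples moved its size: the log2 fold change was 0.03 without vehicle sample 7, 0.05 without Visudyne sample 3, 0.06 without vehicle sample 13 and 0.32 without vehicle sample 4, and 0.25 with the sample number in the model. The coefficient of variation of Ccn2 over the 10 samples was 23.4%, where counting error alone would give 3.78%.

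Amotl2 and Lats2 are targets that restrain YAP, the first a junctional scaffold that binds YAP and the second a kinase that phosphorylates it. Amotl2 (ENSMUSG00000032531, chr9:102716672-102733418, plus strand) measured 19.7, 17.3, 14.4, 15.8 and 16.8 CPM in the vehicle group and 18.6, 19.2, 15.6, 20.3 and 18.1 CPM in the Visudyne group. Only Visudyne sample 12 exceeded the highest vehicle sample. Amotl2 averaged 16.8 ± 1.99 CPM with vehicle and 18.4 ± 1.74 CPM with Visudyne, a log2 fold change of 0.13 (SE 0.09, interval -0.06 to 0.32).

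Lats2 (ENSMUSG00000021959, chr14:57689662-57758388, minus strand) had the most counts of the 10 genes, 3079 to 4292 per sample. It measured 67.0, 59.5, 67.3, 68.8 and 62.4 CPM in vehicle samples and 66.3, 59.9, 63.8, 73.0 and 58.7 CPM in the Visudyne group. The highest and the lowest of the 10 values were both Visudyne samples, 12 and 15. Means were 65.0 ± 3.92 CPM with vehicle and 64.3 ± 5.74 CPM with Visudyne, and the log2 fold change was -0.02 (SE 0.07, interval -0.16 to 0.13), which leaves folds from 0.897 to 1.09 within the interval.

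**Figure D2:**
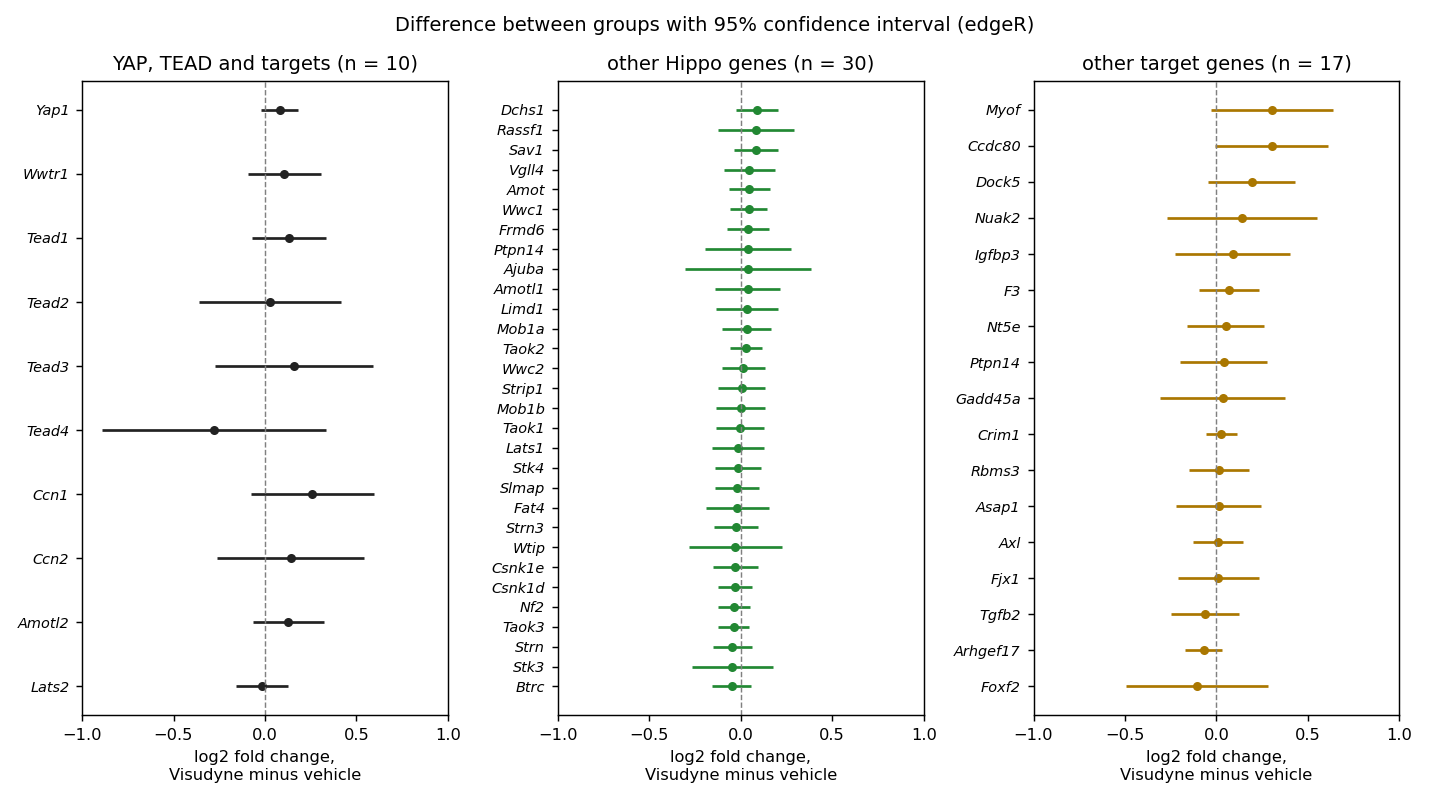
Log2 fold change, Visudyne minus vehicle (x axis), of the 10 genes, of 30 other Hippo genes and of 17 other target genes (y axes), each a point with its 95% confidence interval from edgeR. Intervals of all 10 genes cross 0, and those of Lats2 and Yap1 are narrow (-0.16 to 0.13 and -0.02 to 0.18).

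Levels of different genes were compared per kilobase of exon, as CPM per kilobase over all 10 samples. Lats2 was the highest at 9.28 ± 0.667 (SD, n = 10), 88.2-fold above Tead4. Ccn2 (4.21 ± 0.987), Wwtr1 (3.30 ± 0.371) and Amotl2 (2.80 ± 0.310) followed, then Yap1 (1.43 ± 0.0610), Tead1 (1.30 ± 0.154) and Ccn1 (1.06 ± 0.194). Tead2 (0.314 ± 0.0566), Tead3 (0.187 ± 0.0398) and Tead4 (0.105 ± 0.0309) were the lowest. Along this order the samples' values did not overlap at 3 steps: between Lats2 and Ccn2, between Amotl2 and Yap1, and between Ccn1 and Tead2. At the other 6 steps the ranges overlapped. Within samples the order still held in all 10 for Wwtr1 above Amotl2, Tead2 above Tead3 and Tead3 above Tead4. It held in 9 of 10 for Ccn2 above Wwtr1 and for Tead1 above Ccn1, and in 8 of 10 for Yap1 above Tead1. The related kinase Lats1 stood at 6.10 ± 0.436 CPM per kilobase, below the whole range of Lats2 (8.42 to 10.5).

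**Figure D3:**
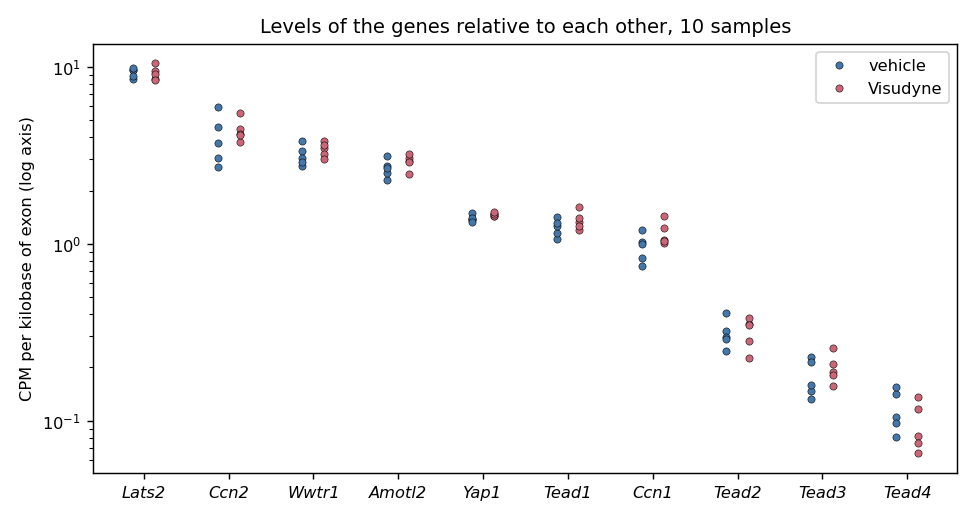
CPM per kilobase of exon (y axis, log scale) for each gene in order of its mean (x axis), with vehicle and Visudyne samples as points. Lats2 stands alone at the top, 6 genes lie between 0.748 and 5.92, and Tead2, Tead3 and Tead4 lie below 0.404.

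The rest of the Hippo pathway was described from a list of 30 genes: the MST kinases (Stk3 and Stk4) and their partners, Lats1 and its MOB cofactors, upstream scaffolds such as Nf2, TAO kinases, the STRIPAK phosphatase complex, angiomotins, Vgll4 and the cadherins Fat4 and Dchs1. All 30 were tested, and 0 passed in either direction by edgeR, against 0.0210% of all genes. At an unadjusted p of 0.05 the count was also 0, against 1.70% of all genes. The log2 fold change was positive for 15 and negative for 15, with a median of 0.00212 and a range from -0.05 to 0.09. The smallest p was that of Dchs1, a giant cadherin, with 27.2 ± 1.57 CPM with vehicle and 28.9 ± 1.30 CPM with Visudyne (0.09, SE 0.05). Sav1, the scaffold of the MST kinases, averaged 12.6 ± 0.516 CPM with vehicle and 13.3 ± 0.775 CPM with Visudyne (0.08, SE 0.06). The next 3 by p were Taok3 (log2 fold change -0.04), Btrc (-0.05), a ubiquitin ligase subunit that leads YAP to degradation, and Wwc1 (0.04), also called KIBRA. The negative regulator Vgll4, which competes with YAP for TEAD, measured 19.0 ± 1.70 CPM with vehicle and 19.7 ± 0.923 CPM with Visudyne.

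A second list held 18 other genes of a published signature of YAP and TAZ activity, which was drawn from human tumours and not from brain. Ptpn14 stands in this list and in the Hippo list. Of these, 17 were tested, while Ankrd1, a cardiac and muscle ankyrin repeat protein, had 0 to 9 counts per sample and did not pass the filter. By edgeR 0 of 17 passed in either direction, against 0.0210% of all genes. An unadjusted p under 0.05 was seen for 0 of 17 and for 1.70% of all genes. Values were positive for 14 and negative for 3, with a median log2 fold change of 0.0329 and a range from -0.11 to 0.30. Ccdc80, a matrix protein of mesenchymal cells, had the smallest p, with 3.05 ± 0.598 CPM with vehicle and 3.76 ± 0.468 CPM with Visudyne (0.30, SE 0.14). Myof, a membrane repair protein, averaged 6.29 ± 1.49 CPM with vehicle and 7.76 ± 0.573 CPM with Visudyne (0.30, SE 0.15). Its vehicle mean included 3.74 CPM in sample 13, while the other 4 vehicle samples ran from 6.63 to 7.67 CPM. Dock5 (log2 fold change 0.19), Arhgef17 (-0.07) and F3 (0.07), the tissue factor gene, came next by p.

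Of the other CCN family genes, Ccn3 was by far the most abundant, a secreted protein made by neurons among other cells, with 113 ± 14.5 CPM with vehicle and 121 ± 12 CPM with Visudyne (log2 fold change 0.10, SE 0.09). Ccn4 averaged 1.20 ± 0.148 CPM with vehicle and 1.36 ± 0.169 CPM with Visudyne (0.18, SE 0.15). Ccn5, at 4 to 48 counts per sample, measured 0.0639, 0.155, 0.199, 0.237 and 0.142 CPM in the vehicle group and 0.328, 0.153, 0.338, 0.865 and 0.139 CPM in the Visudyne group. The Visudyne values overlapped the vehicle range, and sample 12 was far above the other 4. Its log2 fold change of 1.19 (SE 0.52, edgeR adjusted p = 0.9999) did not pass, although its unadjusted p was under 0.05. Ccn6, with 3 to 10 counts per sample, was not tested.

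Marker transcripts of the hippocampus and of several cell types were measured beside the pathway. The hippocampal list (Prox1, Wfs1 and 5 others) summed to 915.3 to 1126 CPM in vehicle and 944.2 to 1111 CPM in Visudyne samples. Astrocyte markers (10 genes, Aqp4 and Gfap among them) summed to 4692 to 5280 and 4574 to 5391 CPM, endothelial markers (10) to 122 to 161.7 and 119.1 to 155.5 CPM, and mural cell markers (11) to 135.3 to 188.4 and 136.7 to 179.5 CPM. The ranges of the 2 groups overlapped for each of these lists. Fibroblast markers (13 genes), by contrast, summed to 62.88 to 146.6 CPM in vehicle and 148.8 to 182.6 CPM in Visudyne samples without overlap. None of the 13 was at 0 in all samples, and the median log2 fold change was 0.38. Of the 13, 5 did not overlap between the groups, against 0.435% of all genes. These were Col1a1, Col1a2, Col3a1, Mgp and Slc47a1, with log2 fold changes from 0.78 to 1.83. The others overlapped: Osr1 (0.47), Islr (0.38), Foxc1 (0.295), Dcn (0.18), Slc6a13 (0.18), Slc22a6 (0.15), Lum (0.04) and Aldh1a2 (-0.05). Log2 fold changes were positive for 12 of the 13, against 51.1% of all genes. The fibroblast list was chosen with earlier results of these data known, so its counts are a description and not independent support. The threshold was passed by 1, the collagen gene Col1a1, and by 0.0210% of all genes. Col1a1 averaged 8.42 ± 2.30 CPM with vehicle and 19.0 ± 2.47 CPM with Visudyne (log2 fold change 1.18, SE 0.16, edgeR adjusted p = 0.0485). The Col1a1 call was lost without Visudyne sample 3, 6, 9, 12 or 15 and without vehicle sample 7, 10 or 13 (edgeR adjusted p from 0.0629 to 0.279), while its log2 fold change stayed between 1.08 and 1.30 when any sample was left out. It also missed the threshold with upper-quartile factors (edgeR adjusted p = 0.0596), without mitochondrial genes (0.0508) and with the stricter filter on low counts (0.05). Col1a1 passed with DESeq2 (adjusted p = 1.38e-08), limma voom (0.0372) and voom with sample quality weights (0.00792). By edgeR it passed with sample number as covariate (adjusted p = 0.00181) and with adjacent sample numbers as a block (0.00938). The same test passed with RLE factors (0.0464), without the filter on low counts (0.0424) and without vehicle sample 1 (0.0392) or 4 (0.0275). The Pearson correlation of the fibroblast sum with Ccn2 over the 10 samples was 0.63 (rho 0.49; permutation p = 0.0486 and 0.155, adjusted over 100 relations 0.270 and 0.469), and it was 0.03 without vehicle samples 7 and 13. For Wwtr1, Yap1, Amotl2 and Ccn1 the r with the fibroblast sum was 0.60, 0.53, 0.51 and 0.21. Without the same samples it was 0.57, 0.56, 0.57 and 0.665. For Tead1, Tead2, Tead3, Tead4 and Lats2 it was -0.002, 0.305, -0.07, -0.13 and 0.08. Without these samples it was -0.008, 0.05, 0.18, 0.07 and 0.05. None of these relations passed adjustment. The part of fibroblast RNA in the values of the 10 genes was not tested further.

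The variation of the genes between the 10 samples had no common direction. Of the 45 pairs, 25 had a positive and 20 a negative Pearson r of log2 CPM, with a median of 0.01. At an unadjusted permutation p of 0.05, 6 pairs passed, and after Benjamini-Hochberg adjustment 0 did. The r of Yap1 was 0.02 with its paralogue Wwtr1, -0.08 with Ccn2, 0.01 with Amotl2 and -0.11 with Ccn1. After each group was centred on its mean these were -0.33, -0.39, -0.44 and -0.77. The pair of smallest p was Tead2 and Ccn2, with r = 0.75 (p = 0.0128, adjusted 0.288) and rho = 0.76 (p = 0.0152, adjusted 0.259), both by permutation, and r = 0.79 without vehicle sample 4 and Visudyne sample 9. Wwtr1 and Amotl2 gave r = 0.73 (permutation p = 0.0192, adjusted 0.288) and rho = 0.72 (p = 0.0230, adjusted 0.259), and r = 0.64 without vehicle samples 1 and 10.

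Wwtr1 and Tead1 ran opposite to each other, with r = -0.69 (permutation p = 0.0267, adjusted 0.300) and rho = -0.70 (p = 0.0302, adjusted 0.272), and r = -0.52 without vehicle samples 1 and 10. On the group-centred values r was -0.97, the strongest of the 45 pairs on that scale. In both groups the order of the samples by Wwtr1 was the exact reverse of their order by Tead1: among vehicle samples 1, 4, 7, 13 and 10, and among Visudyne samples 3, 12, 6, 9 and 15, the Wwtr1 level decreases from the first to the last and the Tead1 level increases. This pair was picked out after its values were seen. The summed level of 4 markers of cortical layer 6b (Cplx3, Nxph4, Moxd1 and Nr4a2), which can enter a hippocampal dissection with overlying cortex, went with both genes: its r was 0.74 with Wwtr1 and -0.76 with Tead1 (permutation p = 0.0172 and 0.00937, adjusted 0.224 each), with rho of 0.78 and -0.75 (p = 0.0107 and 0.0171, adjusted 0.338 each). Without vehicle sample 4 and Visudyne sample 3 these r were 0.81 and -0.78. Nr4a2, which is expressed well beyond layer 6b, made up 77.2 to 81.8% of this sum. Some other marker sums went with the pair in the same directions. Their r with Wwtr1 and with Tead1 was 0.68 and -0.71 for mural cells, 0.72 and -0.58 for microglia and 0.68 and -0.59 for astrocytes. It was 0.59 and -0.59 for endothelium, 0.50 and -0.73 for neurons and 0.48 and -0.32 for ependyma. The signs were opposite for choroid plexus (-0.20 and 0.03) and immediate early genes (-0.07 and 0.29), and fibroblasts gave 0.60 and -0.002. Without the 2 samples farthest from each sum's median, mural cells gave 0.37 and -0.47, neurons 0.26 and -0.27 and ependyma 0.06 and -0.10. Microglia then gave 0.53 and -0.435, astrocytes 0.63 and -0.46 and endothelium 0.87 and -0.72. Fibroblasts gave 0.57 and -0.008, choroid plexus 0.10 and 0.29 and immediate early genes -0.06 and 0.61. None of the 100 relations passed adjustment. For Ccn2, a gene known to mark layer 6b neurons, the r with this sum was 0.79 (permutation p = 0.00633, adjusted 0.211) and rho 0.76 (p = 0.0153, adjusted 0.338), falling to 0.52 without the same samples. The layer 6b sum covered 51.61 to 72.24 CPM in vehicle and 51.6 to 73.89 CPM in Visudyne samples, and its part in these relations was not tested.

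**Figure D4:**
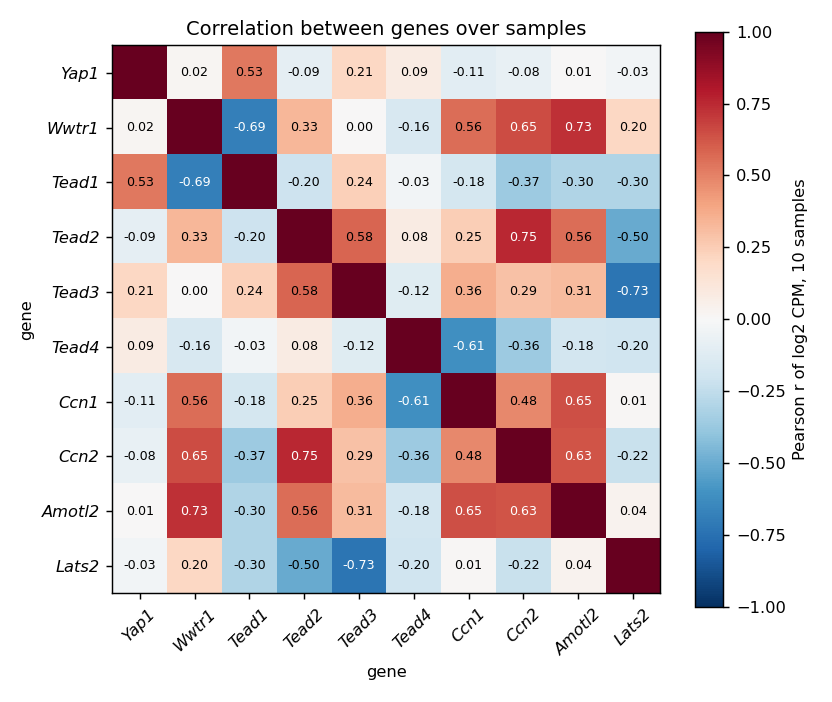
Pearson r of log2 CPM over the 10 samples for each pair of genes (both axes list the genes, colour and number give r from -1 to 1). Positive and negative cells are mixed, 25 and 20 of the 45 pairs, and Wwtr1 is paired positively with Amotl2 (0.73) and Ccn2 (0.65) and negatively with Tead1 (-0.69).

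For each gene the annotated genes with the most similar pattern over the 10 samples were found among the 12917 whose log2 CPM averaged 1 or more. The highest Pearson r were those of Lats2 with Gdpd1 (0.98) and Arl6 (0.97), Tead1 with Xpnpep1 (0.97) and Mrpl35 (0.94), Tead3 with Casz1 (0.97) and Tchp (0.94), and Wwtr1 with Gltp (0.96) and Tspan14 (0.96). Ccn1 was most like Fam43a (0.95) and Arntl (0.94), Ccn2 most like Fmod (0.95) and Bmp6 (0.94), and Amotl2 most like Mex3d (0.94) and Slc46a1 (0.93). Yap1 was nearest to B230354K17Rik (0.91) and Katnal2 (0.90), Tead2 to Chkb (0.91) and Etv4 (0.86), and Tead4 to Gm15728 (0.89) and Hspa2 (0.88). These are the highest of 12917 values each over the same 10 libraries and carry no p. None of these 20 genes was another of the 10, of the Hippo list or of the target list.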

How the data were processed

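The deposited table holds estimated counts of 28871 Ensembl genes in 10 samples. The authors used FastQC, Salmon and build mm10, per the submitters' processing notes, with versions not given in the sources used here. Per the labels' protocols, the libraries came from a stranded total RNA kit, so unspliced and noncoding RNA is counted. The counts were whole numbers and were used as they stand. GENCODE symbols matched 28564 identifiers, and the 307 others held 0.134% of the counts. Estimated counts of near-identical sequences are less certain.

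The members and lists were chosen with earlier results of these data known. edgeR 4.0.16 (R 4.3.3) was run with TMM factors, its filter on low counts, no covariate and Benjamini-Hochberg adjustment over 19093 genes at 0.05. SE and 95% intervals were derived from the F statistics. Log2 CPM used a prior count of 2, and correlations 100000 permutations. Named genes were all 10 genes, those of the Hippo and target lists past the threshold or among the 5 of smallest p, the tested CCN genes, marker genes past the threshold with up to 3 examples, and the 2 most similar genes of each member. Vgll4, Lats1 and Ankrd1 were named as examples after the values were seen. All 13 fibroblast markers were named, and the relations with marker sums were added, also after the values were seen. Levels per kilobase used the union of GENCODE exons, not the lengths of the transcripts present. The procedure was tested on simulated data.

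Each of the 45 library pairs differed beyond counting error (chi-square over its degrees of freedom 9.68 to 68.3), so none was a repeat count of the same library. Whether any libraries came from the same animal cannot be told this way. Depth was 51165271 to 68895223 counts per sample. Alternatives were other scalings and filters, removal of mitochondrial genes, DESeq2 1.42.0, limma 3.58.1 voom with and without sample quality weights, the sample number as a covariate and each sample left out, and, added after the data were seen, adjacent sample numbers as a block.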

Additional observations from a re-analysis of the deposited data

Results flagged for a closer look

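Of 66 groups of 5 values screened, 5 held a sample that stood apart from the other 4 by more than Dixon's critical value of 0.71, where chance gives about 1 in 20. None of the 10 genes of the pathway was among them. Myof, of the target list, measured 3.738 CPM in vehicle sample 13, and the next vehicle value was 6.634 CPM. Ccn5 measured 0.8654 CPM in Visudyne sample 12, and the next Visudyne value was 0.3375 CPM. The summed ependymal markers reached 26.68 CPM in the same Visudyne sample 12, where the next value was 11.91 CPM. The summed choroid plexus markers were 225.6 CPM in vehicle sample 7, against 47.08 CPM in the next vehicle sample. The summed immediate early genes were 270.9 CPM in vehicle sample 13, against 180.7 CPM in the next.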

How the results depend on the processing

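Under each of the 20 alternatives run, 0 of the genes tested among the 10, 0 of the Hippo list and 0 of the target list passed. Tead4 had no value under the filter of 1 CPM in 5 samples. Over all genes the count of 4 became 2 with upper-quartile factors, 2 without mitochondrial genes, 17 with DESeq2, 13 with voom and sample quality weights, 19 with sample number as covariate, 10 with adjacent sample numbers as a block, and 0 to 5 when a sample was left out. It was 0 without Visudyne sample 3, Visudyne sample 6 or vehicle sample 7, and 1 without Visudyne sample 9, 12 or 15 or vehicle sample 10 or 13. Tead2 and Lats2 had log2 fold changes so near 0 that their sign changed. That of Tead2 was -0.032 with voom and sample quality weights and ran from -0.0459 to 0.136 when a sample was left out, below 0 without Visudyne samples 3 (-0.0149), 6 (-0.0459) or 15 (-0.00724) or vehicle sample 7 (-0.0429). That of Lats2 ran from -0.0595 to 0.0122 when a sample was left out, above 0 without Visudyne samples 6 (0.0096) or 15 (0.0122) or vehicle sample 10 (0.00913). The cause was not tested. The other 8 genes kept their direction under every alternative that gave a value, but not their size. Log2 fold changes ran from 0.0519 to 0.105 for Yap1, 0.062 to 0.18 for Wwtr1, 0.0621 to 0.189 for Tead1, 0.0441 to 0.269 for Tead3, -0.45 to -0.159 for Tead4, 0.167 to 0.356 for Ccn1, 0.03 to 0.321 for Ccn2 and 0.0769 to 0.193 for Amotl2. The lowest values of Tead1 and Tead3 came without Visudyne sample 15. The unadjusted edgeR p was under 0.05 for Wwtr1 with sample number as covariate (log2 fold change 0.16) and without vehicle sample 1 (0.18), for Amotl2 without vehicle sample 1 (0.19) and for Ccn1 without vehicle sample 13 (0.36). The lowest adjusted p of the 10 over all alternatives was 0.911. The groups share no sample number and the labels name no pairs, so the block of adjacent numbers (1 with 3, 4 with 6 and so on) was added after the data were seen and is not a pairing from the design. Counts were lowest for Tead2, Tead3 and Tead4, at 13 to 130 per sample. Counting error alone would give coefficients of variation of 10.7%, 11.7% and 21.3%, and those observed over the 10 samples were 18%, 21.2% and 29.4%.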

Other observations

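The 10 immediate early genes, which share induction by calcium and growth factor signals with Ccn1, all had positive log2 fold changes. Among all genes 51.1% were positive. The median of the 10 was 0.136. Of the 10, 0 passed edgeR's test and 0 an unadjusted p of 0.05, against 0.0210% and 1.70% of all genes. The summed level of the 10 was 157.8 to 270.9 CPM in vehicle and 173.4 to 238 CPM in Visudyne samples. This sum had r = 0.68 and rho = 0.64 with Ccn1 (permutation p = 0.0312 and 0.0548, adjusted over 100 relations 0.255 and 0.338). With Tead3 it had r = 0.66 and rho = 0.685 (permutation p = 0.0418 and 0.0339, adjusted 0.261 and 0.338). Without vehicle sample 13 and Visudyne sample 3 these r were 0.49 and 0.76. Ependymal markers (7 genes) were positive in all 7, with a median of 0.226, and 0 passed, against 0.0210% of all genes. Without Visudyne sample 12 only 1 of the 7 was positive and the median was -0.108. Lats2 went with the summed ependymal markers at r = 0.77 and rho = 0.77 (permutation p = 0.00251 and 0.0125, adjusted over 100 relations 0.211 and 0.338), and r was 0.66 without vehicle sample 1 and Visudyne sample 12. With the astrocyte sum Lats2 gave r = 0.80 and rho = 0.77 (permutation p = 0.00620 and 0.0128, adjusted 0.211 and 0.338), and r was 0.57 without Visudyne samples 12 and 15. Lats2 was near this with neuron markers (r = 0.72, and 0.64 without vehicle sample 1 and Visudyne sample 15). With microglia markers r was 0.71, and 0.48 without vehicle sample 1 and Visudyne sample 12. For the other marker sums r ran from -0.37 (immediate early genes) to 0.38 (choroid plexus). These relations were computed after the data were seen, and 0 of the 100 passed adjustment.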
